A study of Homo sapiens with 9 samples.

Results

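AP-1 is a family of transcription factors that bind DNA as dimers through a basic region and a leucine zipper (bZIP), and 10 of its genes were followed here through oncogene-induced senescence (OIS) and ARID1B knockdown. The members were JUN, JUNB, JUND, FOS, FOSB, FOSL1, FOSL2, ATF3, BATF3 and MAFF, chosen by name, and each was found as a single probe set mapped to exactly 1 gene symbol, among 18417 such genes. JUN proteins pair with each other or with FOS proteins, whereas FOS proteins need a JUN partner to bind DNA. ATF3 and BATF3 are bZIP partners of JUN proteins, and MAFF is a small MAF protein, which lacks a transactivation domain. RAS signalling through ERK and JNK raises AP-1 by transcription of FOS and JUN genes and by phosphorylation of their products, and many genes of these families respond within minutes to growth factors. In fibroblasts AP-1 is known for its control of matrix proteases, cytokines and growth genes.

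The cells were IMR90 human lung fibroblasts (spelled IRM90 in the labels) carrying ER:RAS, a RAS oncoprotein joined to an oestrogen receptor domain, which is activated by 4-hydroxytamoxifen (4OHT). There were 3 arrays in each of 3 groups: ARID1B knockdown cells (shARID1B+4OHT), with a short hairpin RNA against the chromatin remodelling subunit ARID1B and 100 nM 4OHT, senescent cells (vector+4OHT), with an empty vector and the same 4OHT, and non-senescent cells (vector-4OHT), with an empty vector and none. All groups carried ER:RAS, all labels give 6 days after 4OHT and growth for 7 days, and the labels do not say which hairpin was used. The study describes the replicates of each group as biological. No group had a control hairpin, 4OHT without ER:RAS, or the ARID1B hairpin without 4OHT, so drug and RAS effects cannot be told apart, nor can those of hairpin expression and of ARID1B loss.

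Values are log2 expression per probe set after RMA, an array normalisation, and a gene was called when its adjusted p in limma (Benjamini-Hochberg over the 18417 genes) was under 0.05. The hairpin's target, ARID1B, stood at 8.07, 7.96 and 8.13 in knockdown cells, against 8.63, 8.96 and 8.77 in senescent cells and 8.93, 8.85 and 8.94 in non-senescent cells. The knockdown arrays lay below all others (limma adjusted p = 0.000179 against senescent cells). All 10 fibroblast markers averaged above 6.75, the median of all values in the table, and of 7 leukocyte markers 1 did (CD68), with the defining PTPRC at means of 3.94 to 4.04 and mean marker levels of 6.29 to 6.33 in knockdown, 6.23 to 6.33 in senescent and 6.24 to 6.28 in non-senescent arrays. Of 8 endothelial markers 2 averaged above that median, TEK and CLDN5, and the mean level of the 8 was 5.98 to 6.04 in knockdown, 5.94 to 6.07 in senescent and 5.97 to 6.06 in non-senescent arrays. Of 6 epithelial markers 4 did, KRT8, KRT18, KRT19 and CLDN4, and the mean level of the 6 was 7.21 to 7.26 in knockdown, 7.01 to 7.12 in senescent and 7.25 to 7.31 in non-senescent arrays. The mean fibroblast-marker level was 10.84 to 10.90 in knockdown, 10.79 to 10.86 in senescent and 11.15 to 11.26 in non-senescent arrays, and 8 of the 10 fell in senescence, with DCN (decorin) at a log2 change of -1.60. Single markers moved more than their lists. CD68 was higher in senescence (0.29, adjusted p = 0.00558) and higher again with the hairpin (0.34, adjusted p = 0.00511), the order of groups that FOS had. KRT19 fell in senescence (-1.10) and was higher with the hairpin (0.86), and PECAM1, with means below 6.75, was higher in senescence (0.58) and lower with the hairpin (-0.28). The part of these marker differences in the AP-1 results was not tested, and in bulk RNA fewer cells of a type and less RNA per cell cannot be told apart.

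Senescent cells were first set against non-senescent cells, which asked how AP-1 genes stood 6 days after RAS activation. Transcripts of 5 members rose (JUNB, MAFF, FOSB, FOS and JUN), FOSL2 fell, and FOSL1, JUND, ATF3 and BATF3 did not pass the test. Thus 6 of 10 members were called, against 32.6% of all genes, with 5 higher against 14.9% and 1 lower against 17.6%. JUNB was the single member called at 2-fold or more, against 2.98% of all genes. The median change of the 10 was 0.10 and that of all genes -0.012 on the log2 scale.

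Among the JUN genes, JUNB had the largest change in the family. JUNB, a JUN protein that can oppose JUN at some promoters, stood at 10.02, 10.02 and 10.04 in senescent cells, against 8.97, 9.01 and 8.94 in non-senescent cells. The groups were far apart beside their spread (SD 0.011 in senescent and 0.034 in non-senescent arrays). This was a 2.07-fold rise (log2 change 1.05, 95% interval 0.95 to 1.15, limma adjusted p = 3.33e-08), at the 98.8 percentile of all gene changes. JUN, the founding member and the partner of most FOS dimers, stood at 10.61, 10.74 and 10.69 in senescent cells, against 10.44, 10.36 and 10.44 in non-senescent cells. The groups did not overlap, but the rise was small, 1.2-fold (log2 change 0.27, 0.15 to 0.38, adjusted p = 0.00226). JUND, the member often found in resting cells, had 9.45, 9.59 and 9.41 in senescent cells, against 9.50, 9.56 and 9.58 in non-senescent cells. These arrays overlapped, with a change of -0.06 (-0.18 to 0.06, adjusted p = 0.487).

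The FOS genes went in different directions. FOSB stood at 7.49, 7.59 and 7.35 in senescent cells, against 7.19, 7.04 and 6.88 in non-senescent cells. FOS, the classical immediate early gene, had 7.61, 7.44 and 7.49 in senescent cells, against 7.18, 7.26 and 7.04 in non-senescent cells. For both genes every senescent array was above every non-senescent array, and FOSB rose 1.36-fold (0.44, 0.26 to 0.63, adjusted p = 0.00184) and FOS 1.28-fold (0.36, 0.20 to 0.51, adjusted p = 0.00227). Non-senescent levels of both lay not far above 6.75 (6.88 to 7.19 for FOSB and 7.04 to 7.26 for FOS), so these folds are less certain than that of JUNB. FOSL2, which encodes FRA2 and lacks the strong transactivation domain of FOS, was the member that fell. It stood at 8.55, 8.66 and 8.54 in senescent cells, against 9.13, 9.26 and 9.39 in non-senescent cells, and fell by 37.5% (log2 change -0.68, -0.83 to -0.52, adjusted p = 2.49e-05). FOSL1, which encodes FRA1, had 10.41, 10.47 and 10.34 in senescent cells, against 10.43, 10.69 and 10.57 in non-senescent cells. Its lowest non-senescent array lay among the senescent arrays, and the change of -0.16 (-0.31 to -0.01) was not called (adjusted p = 0.111).

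MAFF, the small MAF gene, stood at 8.28, 8.53 and 8.45 in senescent cells, against 7.85, 7.94 and 7.67 in non-senescent cells. It rose 1.51-fold without overlap (0.60, 0.42 to 0.78, adjusted p = 0.000163), the next largest rise after JUNB. ATF3, a stress-induced bZIP factor, had 6.76, 6.66 and 6.71 in senescent cells, against 6.88, 6.95 and 6.79 in non-senescent cells. Signal above background was not established for ATF3, which lay close to 6.75, and its change of -0.17 (-0.31 to -0.02) was not called (adjusted p = 0.0739). BATF3, known from dendritic cell development, had 7.75, 7.60 and 7.63 in senescent cells, against 7.76, 7.76 and 7.85 in non-senescent cells. Its groups were separated by a small margin only, at a change of -0.13 (-0.25 to -0.0008, adjusted p = 0.123). In all, the arrays of 8 of 10 members did not overlap between these groups, against 40.1% of all genes. The 4 members not called had changes between -0.17 and -0.06, and FOSL1, ATF3 and BATF3 had an unadjusted p under 0.05. With 3 arrays a group, 0.1 is the smallest p that exact permutation could reach. The limma p-values rest on each gene's own spread, drawn towards a value estimated over all genes.

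**Figure D1:**
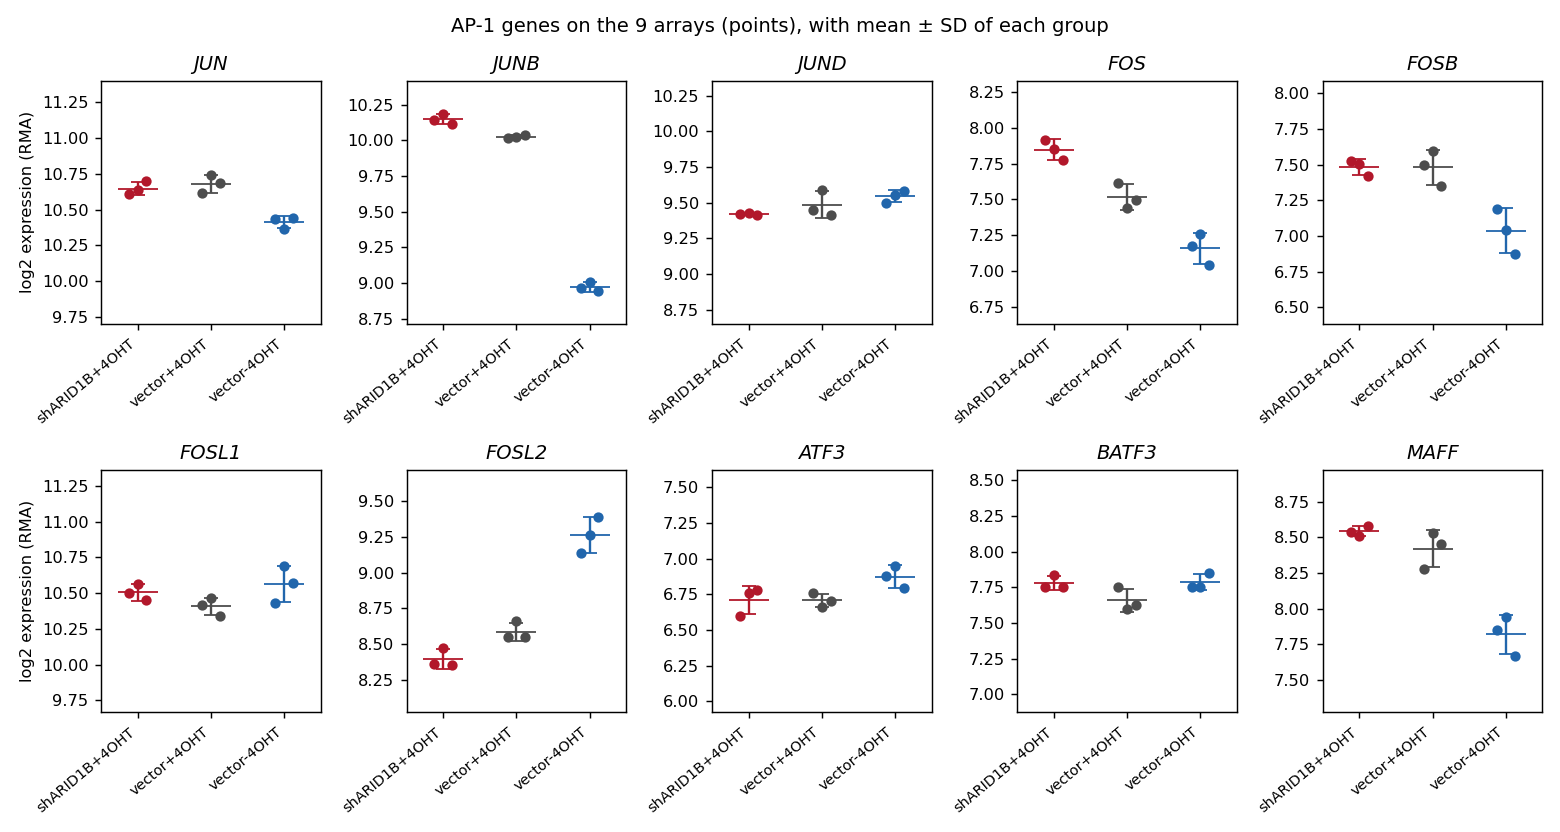
Log2 expression (RMA) of the 10 AP-1 genes by group, with 1 point per array (3 a group), bars for mean ± SD, and axes of equal length. JUNB averages 10.15 in knockdown, 10.03 in senescent and 8.97 in non-senescent cells, FOSL2 runs the other way (8.39, 8.58 and 9.26), and FOS has separate levels in all groups (7.85, 7.52 and 7.16).

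Promoter stretches of the 6 members called in senescence, and of JUND, which was not, are shown because such promoters are known to carry sites for AP-1 and CREB themselves. They are RefSeq sequences of GRCh38.p14 on the strand of the gene, ending at the base before the annotated start. Capitals mark TGACG, the core of the cyclic AMP response element (CRE), on either strand, the full CRE TGACGTCA that contains it, and TGACATCA, a form of the AP-1 site (TRE) with an added base. JUNB lies at chr19:12791336-12791485 (plus strand), MAFF at chr22:38201844-38201993 (plus), FOSB at chr19:45467846-45467995 (plus), FOS at chr14:75278678-75278827 (plus), JUN at chr1:58784048-58784197 (minus), FOSL2 at chr2:28392708-28392857 (plus) and JUND at chr19:18281623-18281872 (minus).
JUNB: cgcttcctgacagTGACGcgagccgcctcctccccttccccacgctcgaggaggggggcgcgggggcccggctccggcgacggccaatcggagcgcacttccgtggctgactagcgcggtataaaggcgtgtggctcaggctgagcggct
MAFF: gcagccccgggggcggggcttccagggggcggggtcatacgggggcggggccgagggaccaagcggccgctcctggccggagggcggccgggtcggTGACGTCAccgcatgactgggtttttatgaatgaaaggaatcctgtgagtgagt
FOSB: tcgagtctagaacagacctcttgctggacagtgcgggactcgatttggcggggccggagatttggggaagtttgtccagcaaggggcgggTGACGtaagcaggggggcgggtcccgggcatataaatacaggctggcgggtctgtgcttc
FOS: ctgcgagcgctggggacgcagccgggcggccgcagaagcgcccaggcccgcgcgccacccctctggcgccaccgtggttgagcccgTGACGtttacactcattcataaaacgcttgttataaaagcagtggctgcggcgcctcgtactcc
JUN: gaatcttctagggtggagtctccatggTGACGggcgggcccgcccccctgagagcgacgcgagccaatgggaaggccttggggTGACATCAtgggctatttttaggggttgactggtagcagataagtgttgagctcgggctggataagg
FOSL2: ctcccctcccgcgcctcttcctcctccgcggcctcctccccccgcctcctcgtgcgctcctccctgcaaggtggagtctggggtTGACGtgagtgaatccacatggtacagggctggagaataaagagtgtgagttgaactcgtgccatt
JUND: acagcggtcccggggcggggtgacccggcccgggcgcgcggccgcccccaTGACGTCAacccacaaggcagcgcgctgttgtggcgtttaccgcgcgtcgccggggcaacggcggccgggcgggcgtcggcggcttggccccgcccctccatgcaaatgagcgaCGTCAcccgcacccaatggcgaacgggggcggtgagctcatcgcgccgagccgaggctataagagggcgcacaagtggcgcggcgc

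RefSeq promoter windows of 300 bases, 250 before and 50 after the start, were matched for 8 of the 10 members (10 windows, since ATF3 and MAFF have more than 1), and FOSL1 and BATF3 had no entry. TGACG was present in 7 of these 8 members, against 24.6% of 35116 promoters of the same length, and the other, ATF3, had TGACATCA (2.61% of promoters). A member counted if any of its windows matched, whereas the shares are of single windows, and the second MAFF window had no TGACG. The searches for TGACG, TGACATCA and TATAAA were chosen after values were seen, so they are descriptions only. FOSL2, which fell, and JUND, which was not called, held TGACG as did the members that rose. The full CRE (1.85% of promoters) was present in MAFF, from position -54 to -47, and in JUND, from -200 to -193. JUN had TGACATCA from -67 to -60, and FOSL2 had a TRE, searched as TGANTCA (7.71% of promoters), from 5 to 11 after the start. A TATA box, searched as TATAAA (11.5% of promoters), was present in JUNB, FOS and FOSB between -33 and -25. The second window of ATF3 had these letters much further from the start, from -230 to -225. The serum response element (1.29% of promoters) was not matched in any of the 10 windows. Bases further than 250 before the start were not searched, so an element there would be missed. All motifs were searched on both strands, and matches are descriptions of letters, not of binding.

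**Figure D2:**
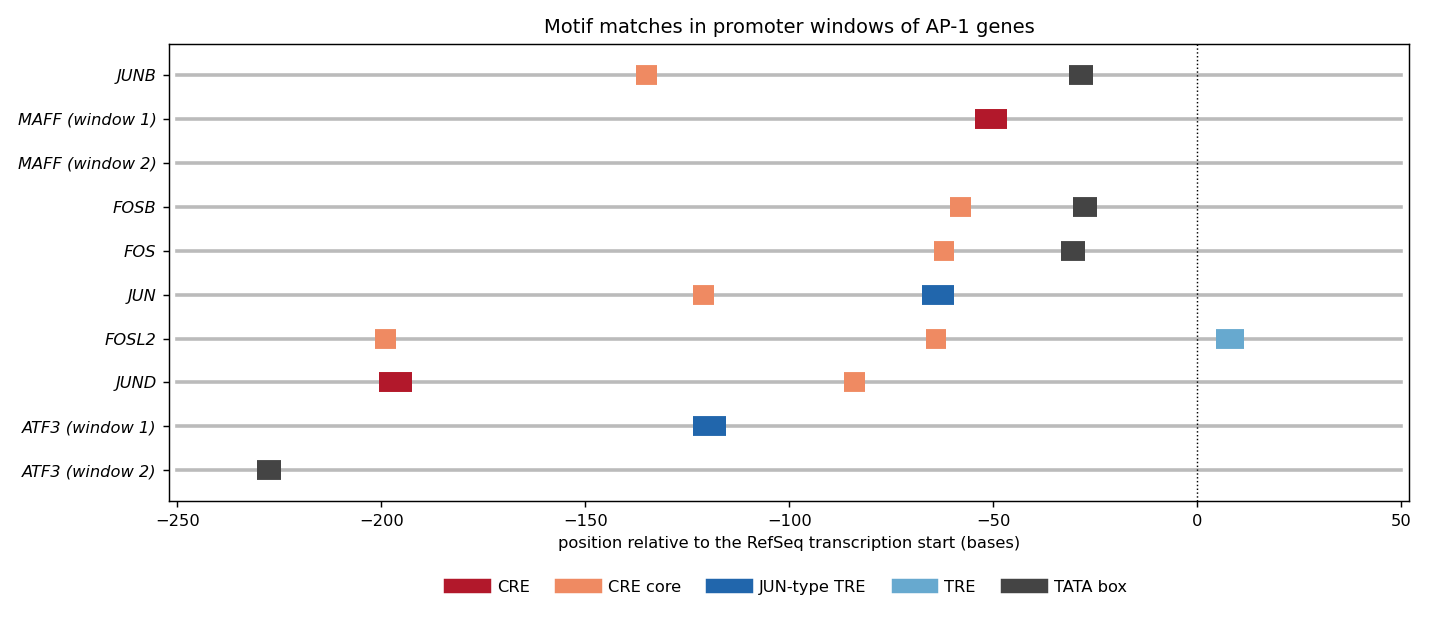
Positions of motif matches (coloured blocks) in 10 promoter windows of 8 AP-1 genes, in bases from the RefSeq start, with repeat windows of a gene numbered. JUND and MAFF hold the full CRE, and TGACG cores lie in JUNB, FOSB, FOS, JUN and FOSL2 as well.

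The next comparison, of knockdown with senescent cells, asked how AP-1 transcripts stood in 4OHT-treated cells once ARID1B was depleted. FOS was the single member called, and it rose further. It stood at 7.92, 7.86 and 7.77 in knockdown cells, against 7.61, 7.44 and 7.49 in senescent cells, without overlap and 1.26-fold higher (log2 change 0.33, 0.18 to 0.49, limma adjusted p = 0.00894). So 1 of 10 members was called higher, against 9.63% of all genes, and 0 lower, against 6.09%. The member share was close to the share of all genes (15.7% in either direction), and no member was called at 2-fold or more, against 0.434% of all genes. At an unadjusted p under 0.05 limma had 2 members higher and 1 lower, and the 2-tailed test of the study's methods gave the same counts before adjustment.

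JUNB and FOSL2 were those other members, and both had small differences in the direction they had taken in senescence. JUNB had 10.14, 10.19 and 10.12 in knockdown cells, against 10.02, 10.02 and 10.04 in senescent cells, a difference of 0.12 (0.02 to 0.22, adjusted p = 0.103). FOSL2 had 8.36, 8.47 and 8.35 in knockdown cells, against 8.55, 8.66 and 8.54 in senescent cells, a difference of -0.19 (-0.35 to -0.03, adjusted p = 0.103). The arrays did not overlap for either gene. The same senescent arrays enter both comparisons, so a senescent array that is low or high moves both changes in opposite directions. Arrays of 4 members in all did not overlap here, against 32.5% of all genes.

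The remaining members were not called in this comparison, and intervals are given gene by gene for JUN, FOSB and MAFF. JUN had 10.61, 10.63 and 10.70 in knockdown cells, against 10.61, 10.74 and 10.69 in senescent cells (difference -0.03, -0.15 to 0.08, adjusted p = 0.724). FOSB had 7.53, 7.50 and 7.42 in knockdown cells, within the senescent range of 7.35 to 7.59 (difference 0.003, -0.18 to 0.19, adjusted p = 0.986). MAFF had 8.54, 8.51 and 8.58 in knockdown cells, against 8.28, 8.53 and 8.45 in senescent cells (difference 0.12, -0.05 to 0.30, adjusted p = 0.349). Thus the knockdown intervals of JUN, FOSB and MAFF all included 0, and their upper ends at most reached 0.30. That is not far below the called FOS change of 0.33, and the intervals make no allowance for many genes. FOSL1 at 10.50, 10.57 and 10.45, JUND at 9.42, 9.43 and 9.41, ATF3 at 6.60, 6.76 and 6.78 and BATF3 at 7.76, 7.84 and 7.76 in knockdown cells differed from senescent cells by 0.10, -0.06, 0.004 and 0.12, with adjusted p from 0.191 to 0.977. JUND arrays were closest together in knockdown cells, with an SD of 0.006. Very small spreads were not particular to JUND, as 721 of 18417 genes had identical values in all arrays of a group.

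Set against non-senescent cells, knockdown cells had the same 6 members called in the same directions. JUNB was 2.26-fold higher (adjusted p = 1.28e-08), MAFF 1.65-fold (adjusted p = 4.2e-05), FOS 1.61-fold (adjusted p = 2.2e-05), FOSB 1.36-fold (adjusted p = 0.0019) and JUN 1.18-fold (adjusted p = 0.00557). FOSL2 fell by 45.2% (log2 change -0.87, -1.02 to -0.71, adjusted p = 3.88e-06). These 6 calls compare with 31.5% of all genes, the 5 higher with 15.6%, the 1 lower with 15.9%, and JUNB at 2-fold or more with 3.02%. Arrays of 8 members did not overlap, against 45.9% of all genes. The non-senescent arrays are shared with the first comparison, so the repeat of the 6 calls is not independent of it. FOSL1 (-0.06, -0.21 to 0.09, adjusted p = 0.557), JUND (-0.12, -0.25 to -0.001, adjusted p = 0.121), ATF3 (-0.16, adjusted p = 0.0821) and BATF3 (-0.004, -0.13 to 0.12, adjusted p = 0.966) were not called.

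Ordered by level, JUNB, MAFF and FOS were highest in knockdown cells, then in senescent cells, and lowest in non-senescent cells, but of the neighbouring knockdown and senescent levels those of JUNB and MAFF were not called different. FOSL2 had the reverse order, again with the knockdown and senescent levels not called different. JUN and FOSB had nearly equal levels in both groups with 4OHT, above the non-senescent level.

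**Figure D3:**
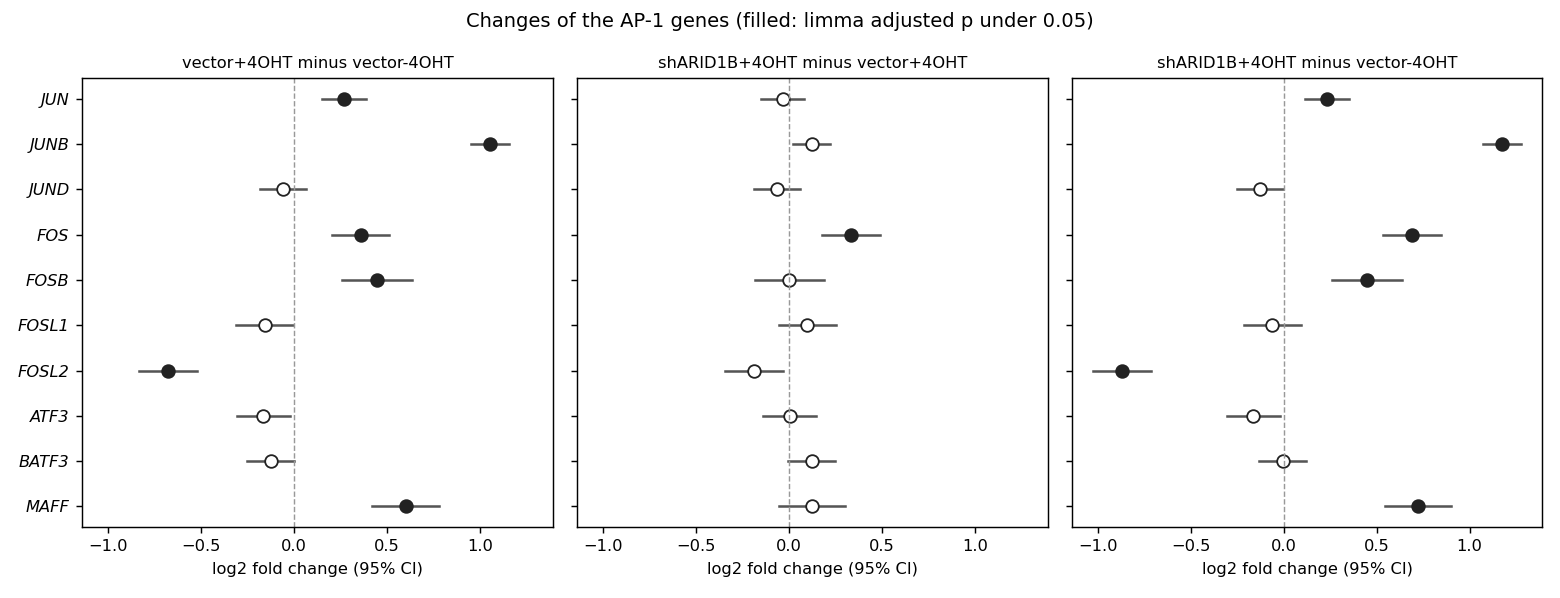
Log2 fold change (points) with its 95% interval from limma for the 10 AP-1 genes in the 3 comparisons, filled where the adjusted p was under 0.05. FOS, at 0.33, is the filled point of the middle panel, and the outer panels have the same 6 genes filled.

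The genes around AP-1 were read from 3 lists. Of 10 measured bZIP genes outside the 10 members (12 listed), senescent cells had 1 higher and 3 lower than non-senescent cells, with a median log2 change of -0.094. Of all genes 14.9% were called higher and 17.6% lower, so this list was near the background. CREB5, a CRE-binding factor that pairs with JUN, fell by 0.71 (adjusted p = 4.73e-05), JDP2, which represses AP-1 sites as a JUN partner, fell by 0.33 (adjusted p = 0.000448), and NRL, a retinal MAF-type factor at a mean below 6.75, had a log2 change of -0.34 (adjusted p = 0.0018). MAFG, a small MAF gene like MAFF, rose by 0.31 (adjusted p = 0.00192). With the hairpin CREB5 fell by a further 0.26 at an adjusted p of 0.0495, and the other 9 were not called (15.7% of all genes were). This CREB5 call was lost with only the 6 arrays compared, with every probe set tested, with array medians subtracted, and without any 1 of 7 of the 9 arrays. Against non-senescent cells, knockdown cells had 1 of these genes higher and 4 lower, against 15.6% and 15.9% of all genes. Among the lower was MAF, with a log2 change of -0.27 at means below 6.75 (adjusted p = 0.00229).

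Kinases and transcription factors upstream of FOS and JUN were measured for 16 of 19 listed genes. In senescent cells 7 were higher and 2 lower than in non-senescent cells, at a median of 0.15, against 14.9% and 17.6% of all genes. RPS6KA3, which encodes the ERK-activated kinase RSK2, rose 2.67-fold (adjusted p = 2.24e-08), with means of 11.46 ± 0.073 in senescent and 10.04 ± 0.080 in non-senescent cells (SD, n = 3 each). MAP2K1, the ERK kinase MEK1, rose 1.27-fold (adjusted p = 0.000273) and RPS6KA1, another RSK gene, 1.17-fold (adjusted p = 0.00551). MAP2K6, a kinase of p38 with means below 6.75 in all groups, fell by 0.55 (adjusted p = 0.000814). With the hairpin 2 were higher, MAPK9, which encodes the JUN kinase JNK2 (0.38, adjusted p = 0.00327), and RPS6KA3 (0.20, adjusted p = 0.0445), and 2 were lower, against 9.63% and 6.09% of all genes. The lower genes were MAP2K3, another kinase of p38 (-0.41, adjusted p = 0.00136), and SRF (-0.25, adjusted p = 0.0113). SRF is the serum response factor, which binds the FOS promoter. Against non-senescent cells, knockdown cells had 6 higher and 1 lower, against 15.6% and 15.9% of all genes, including ELK3, a partner of SRF (0.25, adjusted p = 0.00395).

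Most of the textbook AP-1 target genes measured rose in senescence. Of 19 measured (20 listed), 14 were higher and 0 lower than in non-senescent cells, against 14.9% and 17.6% of all genes. This list was chosen with earlier results of these data known, and AP-1 activity was not measured. At an unadjusted p under 0.05 limma had 14 higher and 0 lower. Their median log2 change was 1.13, with MMP3, CXCL8, PTGS2 and IL6 at the smallest p-values. MMP3, a matrix protease, had means of 10.49, 11.61 and 5.94 in knockdown, senescent and non-senescent cells, and IL6, an inflammatory cytokine, had 11.81, 11.10 and 7.83. With the hairpin 2 targets were higher, IL6 1.64-fold (adjusted p = 1.01e-05) and PTGS2, the inducible cyclooxygenase, 1.43-fold (adjusted p = 0.00425), and 4 were lower, against 9.63% and 6.09% of all genes. The falls were in MMP3 (-1.12, adjusted p = 3.1e-06), EDN1, the endothelin precursor (-1.27, adjusted p = 3.59e-06), SPP1, or osteopontin (-1.25, adjusted p = 6.45e-06), and MMP10, another matrix protease (-0.69, adjusted p = 0.000397). In knockdown cells MMP10 averaged 6.43, below the median of all values, and SPP1 6.79, close to it, so the size of their falls is less certain. Against non-senescent cells, knockdown cells had 11 targets higher and 2 lower, against 15.6% and 15.9% of all genes, and EDN1 was among the lower (-0.89, adjusted p = 4.52e-06). The median knockdown change of the list was -0.065, beside -0.017 for all genes.

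**Figure D4:**
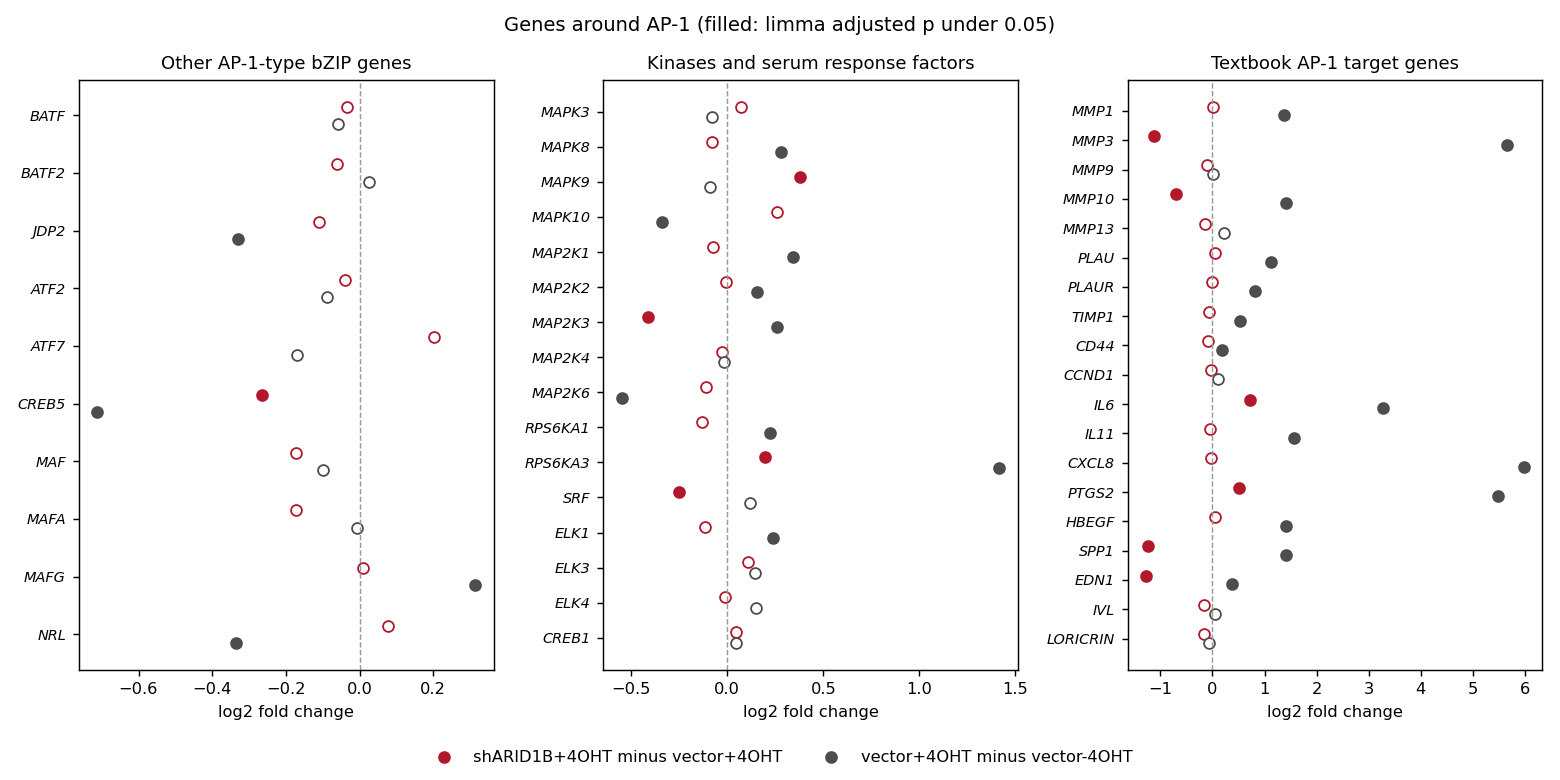
Log2 fold changes of genes around AP-1 with the ARID1B hairpin (red) and in senescence (grey), filled where the limma adjusted p was under 0.05, with each panel on its own axis. In senescence 14 of 19 target genes are filled, all to the right of 0, while with the hairpin 6 of 19 are filled, on both sides of 0.

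The genes whose patterns over the 9 arrays were most like those of the called members were found by Euclidean distance between log2 profiles centred on their own means, with no test. JUNB was nearest to PLAT, the tissue plasminogen activator (distance 0.083), then SVIP (0.16) and ITGA2, an integrin subunit (0.18). PLAT had means of 13.64, 13.56 and 12.49 in knockdown, senescent and non-senescent cells, a rise of 1.07 in senescence beside 1.05 for JUNB. FOS was nearest to ISYNA1, which encodes inositol phosphate synthase (0.092), with means of 9.02, 8.68 and 8.31 in the same order of groups. FOSL2 was nearest to CRIM1 (0.19), and CREB5, one of the listed bZIP genes that fell, came next (0.20). JUN was nearest to PPP1R3F (0.089), FOSB to SLC2A14 (0.18), whose probes can share signal with its close paralog SLC2A3, and MAFF to NOL4L (0.23).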

How the data were processed

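Total RNA from 9 samples was labelled with a whole-transcript kit for Affymetrix gene arrays, although the labels' extraction text names an Illumina library kit. The deposited values are log2 values, 1 per probe set and array, and the submitters' processing notes name RMA, oligo and limma, with versions and genome build not given in the sources used here. RMA makes array distributions alike (array medians 6.70 to 6.79), so a shift of the whole transcriptome would not be seen. Of 33297 probe sets, 19460 carried exactly 1 gene symbol and were kept, and 19429 of these matched RefSeq (GRCh38.p14) by Entrez number. For 769 genes with several, the probe set with the highest mean was used. Group means over all 9 arrays were modelled with limma 3.58.1 (R 4.3.3), which left 6 residual degrees of freedom. Tests were 2-sided, and the fit was tested on simulated data. The number of arrays limits the precision.

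Named genes were all members, ARID1B, the called genes of smallest p (at most 4) in each list of each comparison, and the 3 nearest patterns of each called member. MMP10 and the cell type markers were singled out after their values were seen, as were the searches for TGACG, TGACATCA and TATAAA. The members and lists were chosen with earlier results of these data known. Alternatives were the replicate block, only the arrays compared, a filter on dim genes, other uses of probe sets, array medians subtracted, a variance trend, the methods' t-test and leaving out each array. Listed genes without a measured value were not analysed here.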

Additional observations from a re-analysis of the deposited data

How the results depend on the processing

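Over 18 alternatives, the 30 member changes kept direction and call in 516 of 540 values. Direction could change only with array medians subtracted or a compared array left out. The 6 senescence calls held under all limma settings. Under the methods' t-test on the same values with Benjamini-Hochberg adjustment, FOS and FOSB lost their senescence calls (adjusted p = 0.055 and 0.0736, leaving 3 members higher), FOS lost its knockdown call (adjusted p = 0.0703, leaving 0 higher), and JUND was called lower in knockdown against non-senescent cells (2 lower). Unadjusted, that t-test had 2 members lower in senescence, 2 higher and 1 lower with knockdown, and 2 lower in knockdown against non-senescent cells. FOS kept its knockdown call with each array left out (log2 change 0.30 to 0.38), and its highest limma adjusted p was 0.04. ATF3 was called lower in senescence with dim genes left out (adjusted p = 0.0477, 2 members lower). Members lower in senescence numbered 1 to 2 with each array left out. There were 2 without vector-4OHT replicate 1 (FOSL1), vector-4OHT replicate 3 (ATF3) or vector+4OHT replicate 1 (BATF3).

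Uncalled changes near 0 changed sign. With each array left out, the knockdown change of FOSB ran from -0.061 to 0.060 and that of ATF3 from -0.031 to 0.061, and in knockdown against non-senescent cells FOSL1 ran from -0.13 to 0.00071 and BATF3 from -0.031 to 0.027. With array medians subtracted FOSL1 was at 3.71e-05 and BATF3 at 0.056.

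The bZIP list's knockdown call of CREB5 is fragile. Its count of 1 was 0 with only the 6 arrays compared, with every probe set tested, with array medians subtracted and under the adjusted t-test, 2 with the mean of probe sets and 3 under the unadjusted t-test. It ran from 0 to 1 when each array was left out, and was 1 only without vector-4OHT replicate 1 or vector+4OHT replicate 2. Against non-senescent cells that list had 5 called, and 3 with dim genes left out, a step that took MAF and NRL out of the test. The upstream list had 4 called in senescence and 2 in knockdown under the adjusted t-test, and 11 in knockdown against non-senescent cells under the unadjusted test. All genes called under the adjusted t-test were 3738 in senescence (5996 in limma) and 1446 in knockdown (2895). In knockdown the count ran from 1801 to 2817 with each array left out and was lowest without shARID1B+4OHT replicate 2. With array medians subtracted, 3452 genes were higher and 2087 lower in knockdown against non-senescent cells, beside 2867 and 2933. The same step gave 3026 higher and 2658 lower in senescence, beside 2747 and 3249, so the larger side turned, and 1799 higher and 760 lower in knockdown, beside 1773 and 1122.

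Deviations of same-numbered arrays of different groups correlated across genes at -0.26 to 0.32, and of other numbers at -0.33 to 0.34. With 3 arrays a group, this left pairing undecided. With the replicate block, 5 members were higher and 1 lower in senescence and 1 higher in knockdown, and no member call changed. Depth does not apply to arrays. Signals near the median of all values (ATF3, and FOSB and FOS in non-senescent cells) limit how far fold changes can be read.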
